A study of Mus musculus with 7 samples.

Results

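The genes described here are 9 tubulin genes, Tubb4a, Tubb2a, Tubb2b, Tubb3, Tubb5, Tubb6, Tuba1a, Tuba1b and Tuba4a, together with Tppp. They were taken by name, with earlier results of these data known, and are 10 of the 22880 genes measured in optic nerves at postnatal day 14 (P14). The 4 control mice were FASN lox/lox and the 3 mutant mice were olig2cre FASN lox/lox, all on a C57Bl/6 background, with each sample standing for 1 mouse. Both groups therefore carried the floxed alleles of the fatty acid synthase gene. The mutants also carried a Cre recombinase driven by Olig2 regulatory elements, which acts in the oligodendrocyte (OL) lineage. Fasn in the other cells of the nerve was not measured separately here. The comparison asks how the transcriptome of this white matter tract differs when OLs cannot make fatty acids themselves, at an age when they are building myelin.

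Alpha and beta tubulin pair into dimers that stack into microtubules, the hollow filaments along which cells carry cargo and extend processes. Mammals make each subunit from several genes, called isotypes, whose products are much alike except for their acidic carboxy-terminal tails, where enzymes add glutamate and where many motor and binding proteins dock. In OLs, microtubules fill the processes that reach axons, carry messenger RNA for myelin proteins and run along the cytoplasmic channels of the myelin sheath. Tubb4a is the beta isotype most typical of OLs, and mutations in it cause hypomyelination in people. Tppp, tubulin polymerization promoting protein, is made mainly by myelinating OLs, where it bundles and nucleates microtubules.

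The part of each gene that sets the isotypes apart is the end of the coding sequence, so these ends are shown for 5 of the beta genes. Each was read from the transcript with the longest coding sequence in GENCODE release 21 for mouse (GRCm38), lies in the last coding exon and runs 5′ to 3′ up to and including the stop codon. Capitals mark bases with no identical base in Tubb4a after codon alignment.
Tubb4a: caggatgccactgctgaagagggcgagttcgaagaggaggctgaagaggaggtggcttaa
Tubb2a: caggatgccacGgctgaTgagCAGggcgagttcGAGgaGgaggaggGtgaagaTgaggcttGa
Tubb2b: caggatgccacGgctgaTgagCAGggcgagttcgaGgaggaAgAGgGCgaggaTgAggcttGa
Tubb3: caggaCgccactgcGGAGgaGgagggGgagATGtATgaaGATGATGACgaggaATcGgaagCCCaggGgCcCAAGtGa
Tubb5: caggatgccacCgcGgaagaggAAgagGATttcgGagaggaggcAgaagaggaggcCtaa

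Tubb3 differs most from Tubb4a here, with 34 capitals in 78 bases, whereas Tubb5 has 10 in 60. On GRCm38 the ends lie at chr17:57080690-57080749 (minus strand) for Tubb4a, chr13:34074468-34074530 (minus) for Tubb2a, chr13:34127471-34127533 (minus) for Tubb2b, chr8:123421605-123421682 (plus) for Tubb3 and chr17:35834982-35835041 (minus) for Tubb5. Upstream of the tails, the coding sequences of any 2 beta genes were identical at 81.2% to 96.6% of 1275 bases, and those of any 2 alpha genes at 86.0% to 98.3% of 1290 bases. Among the 10 genes the closest pairs were Tubb2a with Tubb2b (96.6%) and Tuba1a with Tuba1b (98.3%).

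This likeness sets how firmly each gene can be read. Of all stretches of 125 bases, the read length, in the transcript used here, 61.2% in Tuba1a, 64.7% in Tuba1b, 31.5% in Tubb2a and 23.2% in Tubb2b also occur in a transcript of another gene. For those 4 genes the values depend on how RSEM divided shared reads, and Tuba1a and Tuba1b each shared most with Tuba1c. The other 6 genes shared none. Tubb3 lies inside Gm20388, a long gene model on the same strand, with a mean of 19.7 FPKM in controls and 17.4 in mutants. Tuba4a overlaps Stk16 on the opposite strand (39.8 FPKM in controls, 36.1 in mutants), and whether counting used the strand is not given in the sources used here.

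Promoters could be matched in the RefSeq table for 8 of the 10 genes. That of Tppp, the gene of the set that is not a tubulin, is shown as the 250 bases before its RefSeq start on GRCm38.p6 (chr13:74009169-74009418, plus strand, with the gene itself at chr13:74009419-74035753), with a GC box in capitals.
Tppp: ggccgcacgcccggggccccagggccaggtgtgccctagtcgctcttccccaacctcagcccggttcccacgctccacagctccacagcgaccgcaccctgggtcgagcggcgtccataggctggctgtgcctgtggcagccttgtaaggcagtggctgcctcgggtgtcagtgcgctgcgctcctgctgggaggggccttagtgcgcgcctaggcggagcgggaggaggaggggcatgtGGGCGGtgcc
The letters of the GC box, GGGCGG, occurred on either strand in 6 of the 8 promoters (Tppp, Tuba1a, Tuba1b, Tuba4a, Tubb2a and Tubb3), against 32.7% of all 32851 promoters of that length. CCAAT occurred in 3 of 8 (33.8% of all), and TATAAA in Tubb2a alone (12.4% of all). The other letters searched were ACAAAG, a Sox site, in Tubb5 alone (16.5% of all), and CAGCTG, an E-box, in Tuba1b alone (13.0% of all).

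The check of the labels came first. Fasn was measured at 210, 169, 211 and 228 FPKM in controls 1 to 4 and at 69.3, 50.5 and 49.0 FPKM in mutants 1 to 3. FPKM, the unit used throughout, is the number of fragments scaled to the length of the gene and the size of the library. Fasn fell by 1.86 on the log2 scale (adjusted p = 0.00312, limma). The libraries held an estimated 27452222 to 43462575 reads, and each of the 10 genes was covered by at least 387 reads in every library. The genes of mature OLs made the nerve recognisable, with 12 markers summing to 33361 to 35577 FPKM in controls and 24862 to 32116 FPKM in mutants.

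Among the 10 genes, 4 had lower values in every mutant than in any control, namely Tuba1a, Tubb4a, Tubb2b and Tppp, and 1, Tubb3, had higher values in every mutant. The 4 lower genes include the 3 most abundant of the set. None of the 10 passed the adjusted threshold of 0.05 in the limma fit with genotype alone, in which 2.62% of the 13866 tested genes passed, 1.36% lower and 1.26% higher in mutants. At an unadjusted p under 0.05 there were 6 (the above and Tuba4a), against 24.4% of all tested genes. Over all tested genes, the groups did not overlap with mutants lower in 8.26% and with mutants higher in 12.9%. The labels number the samples without saying what a number stands for. Same-numbered samples tended to deviate together, so a second fit took that number as a block beside genotype. The pairing was not clear-cut, as mutant 1 correlated more with control 4 (0.205) than with control 1 (0.168). Control 4 has no mutant of its number and does not enter the difference in that fit, which compares 3 mutants with 3 controls. There 3 of the 10 passed, Tubb2b lower and Tubb3 and Tuba4a higher, where 8.36% of all tested genes passed. Without control 4 and without the block, 0 of the 10 passed and 6 had an unadjusted p under 0.05 (limma). The median log2 difference between mutant and control was -0.05 over the 10 genes and 0.05 over all tested genes. The values below are means over the mixed cells of a nerve, in which fewer cells of a type and less RNA per cell cannot be told apart.

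**Figure D1:**
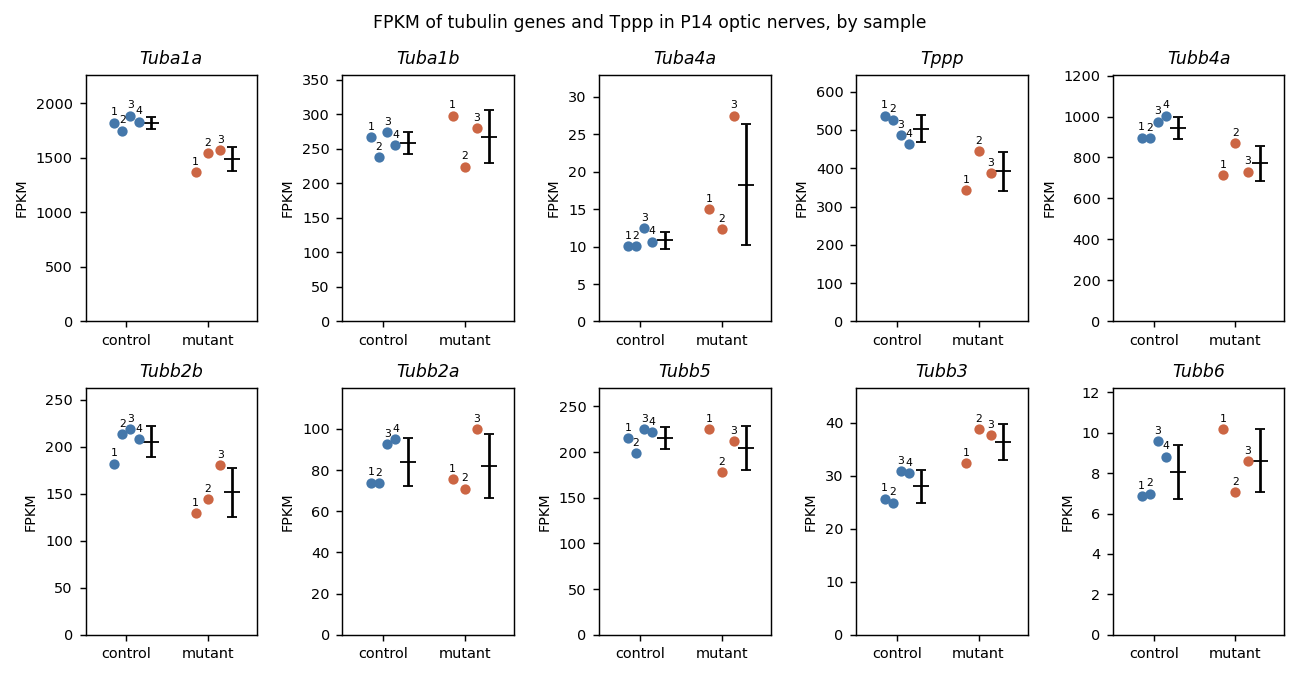
FPKM (linear axes from 0) of each gene in each of the 4 control and 3 mutant nerves, numbered as in the labels, with the mean and SD as a bar. In Tuba1a, Tubb4a, Tubb2b and Tppp every mutant lies below every control, in Tubb3 every mutant lies above, and in Tuba4a mutant 3 (27.5) lies far above the rest.

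Tuba1a, the alpha isotype best known from growing neurites, was the most abundant. It was measured at 1824, 1751, 1887 and 1832 FPKM in controls 1 to 4 and at 1368, 1544 and 1570 FPKM in mutants 1 to 3. All mutants were below all controls. The mutant mean, 1494 ± 110 FPKM (SD, n = 3), was 81.9% of the control mean, 1824 ± 55.9 (SD, n = 4). The log2 difference was -0.29 (SE 0.09, 95% interval -0.48 to -0.10) with an adjusted p of 0.0958, and 0.145 with the block (limma).

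Tuba1b, an alpha isotype found in most cell types, had no such shift. Its values were 268, 238, 275 and 255 FPKM in controls and 298, 224 and 280 FPKM in mutants. The groups overlapped, and the log2 difference of 0.04 had an interval from -0.19 to 0.27. Of its stretches of read length, 44.7% also occur in Tuba1c.

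Tuba4a, an alpha isotype also made by neurons that lacks the usual encoded carboxy-terminal tyrosine, was scarce. Controls had 10.1, 10.1, 12.4 and 10.7 FPKM and mutants 15.0, 12.3 and 27.5 FPKM. Mutant 3 stood far above the others, and mutant 2 lay just below control 3, so the groups overlapped. The log2 difference was 0.65 (SE 0.23, interval 0.14 to 1.17) with an adjusted p of 0.134 (limma). With the block it was 0.65 with an adjusted p of 0.0478. Without mutant 3 the difference was 0.32 (adjusted p = 0.205), and without mutant 2 it was 0.89 (adjusted p = 0.0480). In mutant 3 the markers of neurons and retinal ganglion cells also stood high, at a mean of 0.55 above the control mean on the log2 scale, against 0.06 and -0.06 in mutants 1 and 2. Their part in the value of Tuba4a was not tested.

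Tubb4a was the most abundant beta isotype. It was measured at 897, 896, 975 and 1004 FPKM in controls and at 716, 869 and 732 FPKM in mutants. Mutant 2 came close to the lowest control, and the other 2 mutants lay well below. The mutant mean, 772 ± 84.5 FPKM (SD, n = 3), was 81.9% of the control mean, 943 ± 54.9 (SD, n = 4). On the log2 scale the difference was -0.29 (SE 0.09, interval -0.50 to -0.09) with an adjusted p of 0.106, and 0.169 with the block (limma). Without mutant 2 it was -0.38 with an adjusted p of 0.0419.

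Tubb2b, an isotype best known from newborn neurons and immature cells, had the lowest mutant level relative to controls. Controls had 182, 213, 219 and 208 FPKM, and mutants 129, 144 and 181 FPKM. The highest mutant was just under the lowest control. The mutant mean of 151 ± 26.4 FPKM (SD, n = 3) was 73.6% of the control mean of 205 ± 16.3 (SD, n = 4). The log2 difference was -0.45 (SE 0.11, interval -0.71 to -0.19) with an adjusted p of 0.0710, and it passed with the block (-0.44, adjusted p = 0.0304, limma).

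Tubb2a, its close copy on the same chromosome, was measured at 73.9, 73.6, 92.6 and 94.9 FPKM in controls and 75.6, 71.0 and 99.9 FPKM in mutants. Samples numbered 3 were high in both groups, as was control 4, and the groups overlapped throughout. The log2 difference of -0.03 had an interval from -0.35 to 0.28.

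Tubb3, the class III isotype used as a marker of neurons, was the gene of the set with every mutant above every control. Controls had 25.7, 24.9, 30.9 and 30.5 FPKM, and mutants 32.4, 38.8 and 37.6 FPKM. The mutant mean of 36.3 ± 3.42 FPKM (SD, n = 3) was 130% of the control mean of 28.0 ± 3.14 (SD, n = 4). The log2 difference was 0.37 (SE 0.10, interval 0.14 to 0.60) with an adjusted p of 0.0815, and it passed with the block (0.41, adjusted p = 0.0405, limma). Gm20388, which encloses Tubb3, did not share its direction, with 18.3 to 20.99 FPKM in controls and 16.7 to 18.4 FPKM in mutants.

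The optic nerve holds the axons of retinal ganglion cells, while their cell bodies lie in the retina, and the transcription factors of these cell bodies, Pou4f1, Pou4f2 and Isl1, were at most 0.326 FPKM in any library. The 16 neuronal markers summed to 169 to 181 FPKM in controls and 152 to 186 FPKM in mutants, and none was at 0 in all samples. Of the 13 that were tested, 11 had a positive and 2 a negative difference (8329 and 5537 of all tested genes). The median of the 13 was 0.20 on the log2 scale, against 0.05 over all tested genes. The 2 negative ones, Elavl3 (90.7 FPKM in controls) and Gap43 (27.0 FPKM), were the 2 most abundant of the list and weigh most in its sum. Of the 13, 1 passed (2.62% of all tested genes in either direction), Elavl3, an RNA-binding protein of neurons. Elavl3 fell by 0.31 on the log2 scale (90.7 FPKM in controls, 73.2 FPKM in mutants, adjusted p = 0.0480, limma). Elavl4, also on the list, had only 2.70 FPKM in controls and 2.91 FPKM in mutants. Which cells of the nerve hold the RNA of Elavl3 and Gap43 was not tested. Thy1, a surface protein of retinal ganglion cells, had 12.4 FPKM in controls and 16.6 FPKM in mutants (adjusted p = 0.0837, and 0.0359 with the block, limma). The part of neuronal RNA in the value of Tubb3 was not tested.

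Tubb5, an isotype of most cell types and of dividing cells, had 215, 199, 225 and 222 FPKM in controls and 225, 178 and 212 FPKM in mutants, with overlapping groups. Its log2 difference of -0.08 had an interval from -0.28 to 0.12. Tubb6, an isotype on chromosome 18 that is low in brain tissue, was lowest of all at 6.88, 6.99, 9.58 and 8.82 FPKM in controls and 10.2, 7.08 and 8.58 FPKM in mutants. Its log2 difference of 0.09 had an interval from -0.25 to 0.43.

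Tppp was measured at 537, 527, 487 and 464 FPKM in controls and at 343, 446 and 387 FPKM in mutants. Every mutant was below every control, and mutant 2 was again the highest mutant. The mutant mean of 392 ± 51.5 FPKM (SD, n = 3) was 77.8% of the control mean of 504 ± 34.4 (SD, n = 4). Its log2 difference was -0.37 (SE 0.10, interval -0.59 to -0.14) with an adjusted p of 0.0785, and 0.0558 with the block (limma). Without mutant 2 it was -0.46 with an adjusted p of 0.0344.

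**Figure D2:**
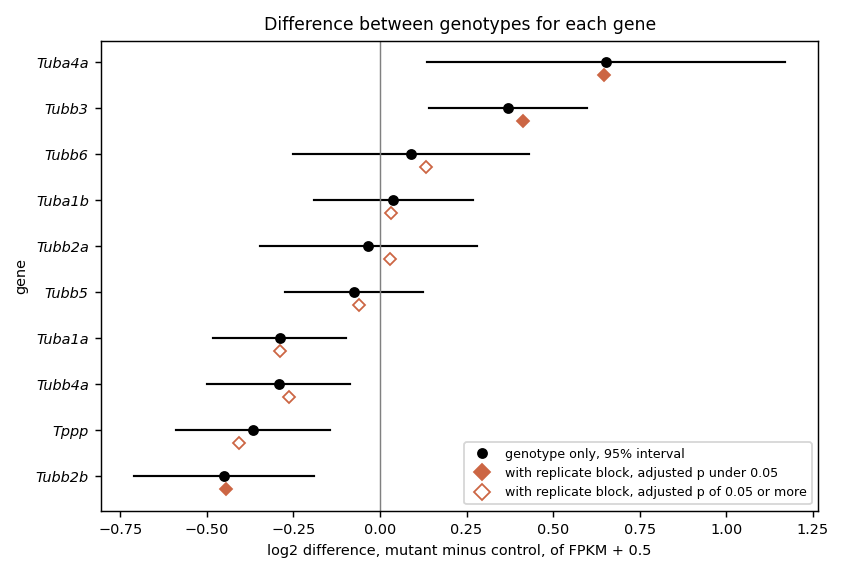
Log2 difference (mutant minus control) of FPKM + 0.5 for each gene, with the 95% interval of the fit with genotype alone as a line and the estimate with the replicate block (3 against 3 samples) as a diamond, filled where its adjusted p is under 0.05. The intervals of Tubb2b, Tppp, Tubb4a and Tuba1a lie below 0 and those of Tubb3 and Tuba4a above it, with filled diamonds for Tubb2b, Tubb3 and Tuba4a.

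Taken gene by gene, an exact permutation test over the samples does not borrow the spread of other genes. Its two-sided p was double the smaller tail, which with 4 against 3 samples cannot fall below 0.0571. That smallest p was reached by Tubb4a, Tubb2b, Tubb3, Tuba1a and Tppp. The test gave 0.114 for Tuba4a and 0.457 to 0.971 for the other 4. With p defined in this way no gene can pass 0.05 here.

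Within the numbered pairs, mutant minus control on the log2 scale kept its sign in all 3 pairs for 6 genes. They are the same 6 that had an unadjusted p under 0.05 (limma), from the same values, so this is not separate evidence. The share of all tested genes that kept their sign was not counted. The differences of Tubb2b were -0.49, -0.56 and -0.28 in pairs 1 to 3, those of Tppp -0.65, -0.24 and -0.33, and those of Tuba1a -0.41, -0.18 and -0.27. Tubb4a had -0.33, -0.04 and -0.41, so that its second pair hardly differed. Tubb3 had 0.33, 0.63 and 0.28, and Tuba4a 0.55, 0.28 and 1.12.

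The order of the levels per length was the same in both groups. Tuba1a came first, followed by Tubb4a, Tppp, Tuba1b, Tubb5, Tubb2b, Tubb2a, Tubb3, Tuba4a and Tubb6. In controls, neighbouring genes in this order had ranges over samples that were apart, except Tubb5 and Tubb2b. In mutants Tuba1b also overlapped with Tubb5.

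The summed FPKM of the 6 beta genes was 1484 ± 88.9 (SD, n = 4) in controls and 1255 ± 61.8 (SD, n = 3) in mutants, 84.6% of controls. That of the 3 alpha genes was 2093 ± 72.0 (SD, n = 4) and 1780 ± 98.0 (SD, n = 3), 85.0% of controls. Both sums were lower in every mutant than in any control. Relative to the mature OL markers described below, the mutants reached 96.8% and 97.5% of controls. That scaling also raises the median log2 difference of all tested genes to 0.24, from 0.05 without it. The mix of these isotypes differed as well. Tuba1a made up 86.8%, 87.6%, 86.8% and 87.3% of the alpha sum in controls and 81.4%, 86.7% and 83.6% in mutants, below every control though mutant 2 only just so. Tuba4a made up 0.481% to 0.571% of the alpha sum in controls and 0.693% to 1.46% in mutants. Tubb4a made up 62.8% to 64.1% of the beta sum in controls and a wider 57.6% to 66.4% in mutants, so its groups overlapped. Tubb3 made up 1.76% to 1.99% of the beta sum in controls and 2.73% to 2.97% in mutants. The shares of Tubb2a, Tubb2b, Tubb5, Tubb6 and Tuba1b overlapped between groups. The sums and shares leave out Tubb4b (103 FPKM in controls, 104 FPKM in mutants) and Tuba1c, described below. These shares were not tested.

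**Figure D3:**
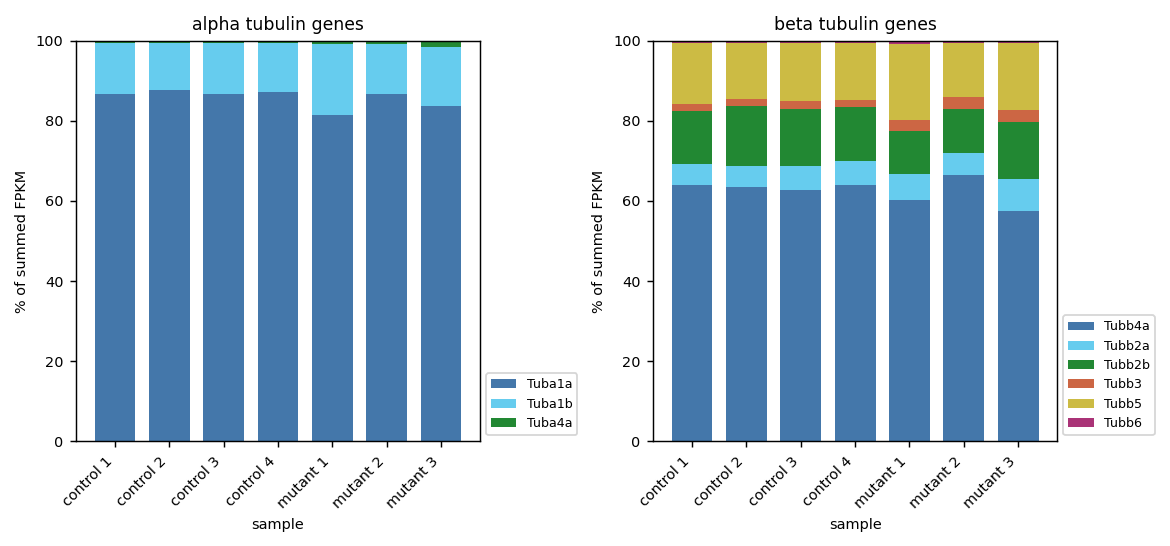
Share (percent) of each gene in the summed FPKM of the 3 alpha genes (left) and of the 6 beta genes (right), 1 bar per sample. Tuba1a and Tubb4a fill most of each bar, the Tuba1a share is lowest in mutant 1 (81.4%) and the Tubb3 share is larger in every mutant than in any control.

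Levels of cell type markers were set beside those of these genes. Relative to the control mean on the log2 scale, the 12 mature OL markers averaged -0.33, -0.01 and -0.24 in mutants 1 to 3, and Tubb4a -0.40, -0.12 and -0.36, Tppp -0.55, -0.17 and -0.38, and Tuba1a -0.41, -0.24 and -0.22. In Tubb4a and Tppp, mutants 1 to 3 thus stood in the same order as in the mature OL markers, highest in mutant 2. Tuba1a did not share that order and was highest in mutant 3. Controls 1 to 4 did not share an order. The mature OL markers averaged -0.03, 0.05, 0.01 and -0.03 there, Tubb4a -0.07, -0.07, 0.05 and 0.09, and Tppp 0.10, 0.07, -0.05 and -0.12. The newly formed OL markers averaged -0.41, -0.30 and -0.32 in the mutants. The markers of OL progenitors (OPCs) averaged -0.48, -0.28 and -0.19, which is also the order of Tubb2b at -0.67, -0.50 and -0.18. In controls 1 to 4 the order differed, with the OPC markers at -0.02, -0.04, 0.05 and 0.01 and Tubb2b at -0.17, 0.06, 0.09 and 0.02. Among the mature OL markers 1 of 12 passed with a lower value, among the newly formed OL markers 2 of 10 and among the OPC markers 3 of 10 (limma). With the block these counts were 0, 5 and 4. Of all tested genes 1.36% passed with a lower value, and with the block 269 of 13866 did so (limma). Their part in the values of Tubb4a, Tppp, Tuba1a and Tubb2b was not tested. When each sample was measured relative to its 12 mature OL markers, the log2 differences were -0.10 for Tubb4a and Tuba1a, -0.17 for Tppp and -0.26 for Tubb2b, none past the threshold, while that of Tubb3 was 0.56 (adjusted p = 0.0421, limma). This scaling, added after the data had been seen, moves the median of all tested genes by 0.19.

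Astrocyte markers were higher in the mutants. They averaged 0.27, 0.52 and 0.50 in mutants 1 to 3 (summed FPKM 3274 to 3693 in controls, 4116 to 5064 in mutants). Of these 10, 4 passed with a higher value (1.26% of all tested genes), and 7 with the block (890 of 13866 tested genes, limma). Endothelial markers averaged 0.32, 0.32 and 0.25 in mutants 1 to 3 and -0.14 to 0.14 in controls. Microglia markers averaged 0.04, 0.17 and 0.22, with control 4 among them at 0.20. Meningeal fibroblast markers averaged 1.12, 0.28 and 0.39, with control 1 at 0.28, and their sum reached 19552 FPKM in mutants against at most 8964 FPKM in controls. None of these endothelial, microglia and fibroblast markers passed (limma). An unadjusted p under 0.05 was found in 5, 3 and 7 of 10 (24.4% of all tested genes). With the block 2, 1 and 7 passed, all with a higher value (890 of 13866 tested genes), so the microglia counts were near those shares. No marker of these lists was at 0 in all samples. Tubb3 stood at 0.21, 0.47 and 0.43 in the same mutants, the same order as the astrocyte markers, whose part in its value was not tested. The mature and newly formed OL markers, with negative means in the mutants, had that order too, so the order singles out no cell type. In controls 1 to 4 the order differed, with Tubb3 at -0.12, -0.16, 0.15 and 0.13 and the astrocyte markers at -0.003, -0.04, -0.07 and 0.11. Without mutant 1, in which the fibroblast markers were highest, the log2 differences were -0.23 for Tuba1a, -0.24 for Tubb4a, -0.34 for Tubb2b, -0.28 for Tppp and 0.45 for Tubb3. Dividing cell markers averaged 0.41 in control 1 and between -0.24 and 0.05 in mutants, with 0 of 10 past the threshold and 1 at an unadjusted p under 0.05 (limma).

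**Figure D4:**
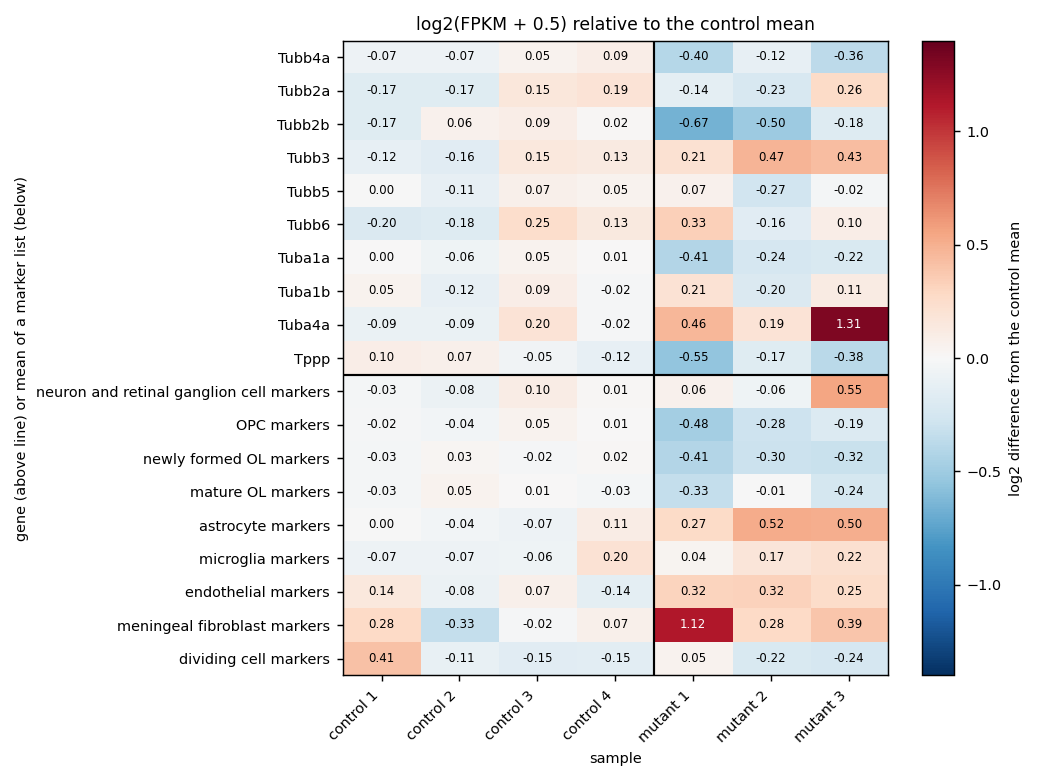
Log2(FPKM + 0.5) of each gene (above the line) and mean of each marker list (below it) in each sample relative to the control mean, printed in each cell and coloured from blue (lower) to red (higher). Tubb4a, Tubb2b, Tuba1a and Tppp are blue in all mutants, as are the lists of the OL lineage, and the highest cells are Tuba4a in mutant 3 (1.31) and the fibroblast list in mutant 1 (1.12).

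The genes with the most similar profiles were sought among all tested genes by the root mean square difference of log2 values over the 7 samples, each relative to its control mean. For Tppp the nearest was Omg, a myelin glycoprotein gene, at 0.01, with a mean of 114 FPKM in controls and 88.7 FPKM in mutants. Nras, Map6d1, Slc44a1 and Polr3g followed at 0.03 to 0.04. For Tubb4a they were Bin1, Cadm4, Ankrd13a, Wscd1 and Klf13 at 0.03 to 0.05, and Bin1 had 151 FPKM in controls and 126 FPKM in mutants. For Tubb3 they were Aacs, Plcd4, Arhgef37, Thrsp and Frmpd1 at 0.05 to 0.08, and Aacs, acetoacetyl-CoA synthetase, had 90.5 FPKM in controls and 116 FPKM in mutants. These distances are descriptions over 7 samples that share libraries.

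The wider machinery of microtubules was read from lists of 109 further names, of which 105 were read in the table and 97 were tested. Of these, 3 passed, all lower in mutants, where 2.62% of all tested genes passed in either direction and 1.36% with a lower value. At an unadjusted p under 0.05 there were 20 of 97 (24.4% of all tested genes). The log2 difference was negative in 60 and positive in 37 (5537 and 8329 of all tested genes). Its median was -0.06, against 0.05 over all tested genes. Relative to the mature OL markers it was negative in 14 and positive in 83, with a median of 0.14 against 0.24. With normalized counts it was negative in 74 (median -0.13 against -0.03) and with median-of-ratios scaling in 68 (-0.10 against 0.01). With the block 5 passed, the same 3 together with Dcx lower (adjusted p = 0.0341) and Clip4 higher (adjusted p = 0.0364).

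Of the enzymes that modify tubulin, 17 were tested and 2 passed, both lower (2.62% of all tested genes in either direction, 1.36% lower). Both act on the acetyl mark of alpha tubulin inside the microtubule. Atat1, the acetyltransferase that adds it, had 116, 125, 119 and 114 FPKM in controls and 82.2, 94.96 and 88.0 FPKM in mutants. It fell by 0.42 on the log2 scale (SE 0.07, adjusted p = 0.0234, limma), with every mutant below every control. Sirt2, a deacetylase abundant in myelin that can remove it, had 2460, 2658, 2675 and 2665 FPKM in controls and 1614, 1938 and 1704 FPKM in mutants. It fell by 0.58 (SE 0.10, adjusted p = 0.0265, limma). Sirt2 is among the genes the study named from these samples, so its place in the list is not independent evidence. Hdac6, the other deacetylase of tubulin, had 8.89 ± 0.607 FPKM in controls (SD, n = 4) and 9.08 ± 0.819 in mutants (SD, n = 3). Sirt2 overlaps Nfkbib on the opposite strand (20.8 FPKM in controls, 14.9 in mutants).

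Of the microtubule associated proteins, 19 were tested, 14 had a negative difference (7 relative to the mature OL markers) and 1 passed (2.62% of all tested genes). Relative to those markers the list had a median log2 difference of 0.11, against 0.24 over all tested genes. Map1a, which binds along microtubules of mature cells, had 87.1, 78.5, 83.4 and 87.0 FPKM in controls and 64.7, 66.1 and 65.1 FPKM in mutants, and fell by 0.36 on the log2 scale (SE 0.06, adjusted p = 0.0249, limma). It overlaps Ppip5k1 on the opposite strand (12.3 FPKM in controls, 12.1 in mutants). Map6d1, related to the stabilising protein Map6, had 87.7 FPKM in controls and 69.1 FPKM in mutants (log2 difference -0.35, adjusted p = 0.0717, limma), with no overlap. Map1b, the relative of Map1a found in growing processes, had 55.1 and 47.5 FPKM (adjusted p = 0.147, limma). Mapt, the gene of tau, had 161 and 160 FPKM, with a log2 difference of -0.02 and an interval from -0.25 to 0.21. The calls of Atat1, Map1a and Sirt2 depended on the libraries: without control 1, control 2, control 3 or mutant 3 none of the 3 passed, whereas the log2 differences lay between -0.48 and -0.37 for Atat1, -0.39 and -0.34 for Map1a and -0.66 and -0.52 for Sirt2 when any 1 library was left out. Map1a and Sirt2 also did not pass without control 4, nor Sirt2 without mutant 1 or without the filter on low values. Relative to the mature OL markers Sirt2 alone passed.

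Of the tubulin folding cofactors, which fold and pair new tubulin (the Cct chaperonin and the Tbc proteins), all 15 were tested and none passed. Of these, 12 had a negative difference (2 relative to the mature OL markers). Relative to those markers the list had a median log2 difference of 0.07, against 0.24 over all tested genes. In 6 cofactors every mutant was below every control (8.26% of all tested genes). At an unadjusted p under 0.05 there were 4 of 15 (24.4% of all tested genes). Cct5 had 151 FPKM in controls and 131 FPKM in mutants (adjusted p = 0.0837, limma). Of the 6 other tubulins that were tested none passed (limma), with 1 at an unadjusted p under 0.05. Tubb4b, the isotype most used in cilia, had 103 FPKM in controls and 104 FPKM in mutants. Tuba1c, which shares sequence with Tuba1a and Tuba1b, had 4.12 to 6.01 FPKM in controls and 11.6, 6.56 and 6.05 FPKM in mutants, all higher (adjusted p = 0.178, limma). Tubg1 and Tubg2, the gamma tubulins that seed microtubules, had 15.1 and 15.7 FPKM for Tubg1 and 3.58 and 3.34 FPKM for Tubg2 in controls and mutants. Tppp3, the relative of Tppp that was tested, had 189 ± 23.7 FPKM in controls (SD, n = 4) and 171 ± 23.6 in mutants (SD, n = 3), with overlapping groups.

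None passed among the 13 plus end proteins, the 13 stathmins and severing enzymes and the 13 nucleation factors that were tested. Of them 3, 1 and 0 had an unadjusted p under 0.05 (24.4% of all tested genes, limma). Stmn1, which binds free tubulin dimers, had 298 FPKM in controls and 279 FPKM in mutants, and Stmn4 had 264 and 260 FPKM, both with overlapping groups.

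**Figure D5:**
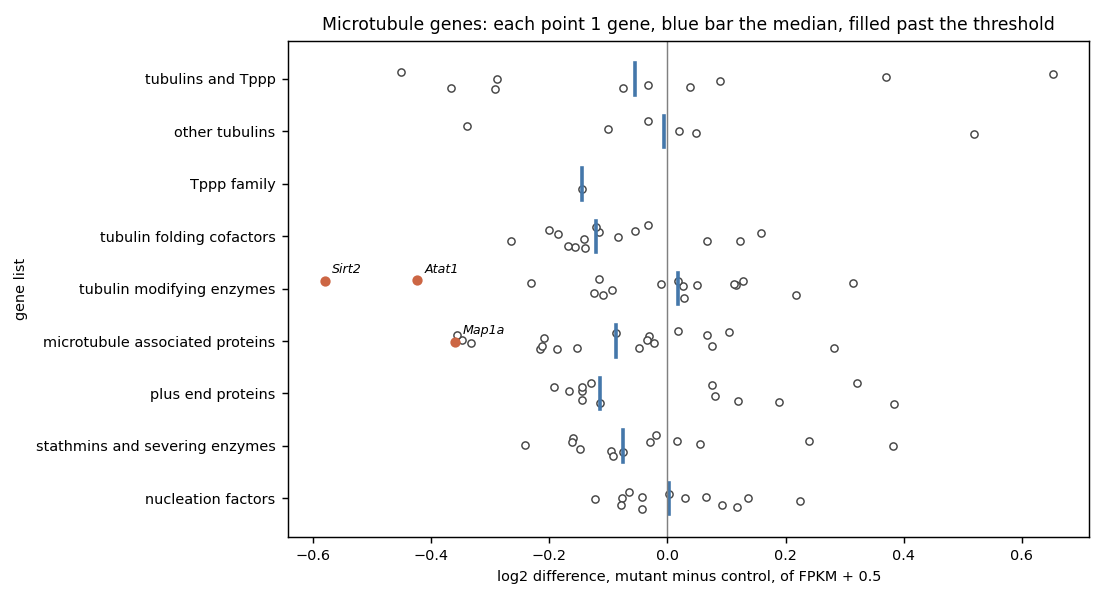
Log2 difference (mutant minus control) of FPKM + 0.5 for the 10 genes and the 97 further microtubule genes tested, by list, with 1 point per gene, filled where the adjusted p is under 0.05, and a blue bar at the median. Atat1, Sirt2 and Map1a are the filled points, and the folding cofactors lie mostly below 0.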

How the data were processed

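Optic nerves of 4 control and 3 mutant mice at P14 were compared. The members and lists were chosen with earlier results of these data known. The authors cleaned the reads, aligned them with STAR 2.5.1b to GRCm38 (Ensembl annotation) and quantified genes with RSEM 1.2.22. The deposited FPKM values, scaled to gene length and library size, were the main measure. The deposited normalized counts, a signal that the authors made from RSEM counts with a size factor whose method is not given in the sources used here, served as an alternative. The deposited log2 ratio and the deposited p-value and FDR columns, the authors' own edgeR comparison, were not used.

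Genes reaching an FPKM of 0.5 in 3 or more samples (13866) entered limma-trend (limma 3.58.1, R 4.3.3) as log2(FPKM + 0.5). Genotype was the sole term, p-values were adjusted by Benjamini-Hochberg over these genes, and the threshold was 0.05. Differences on this scale understate the change of low genes. The script was tested on simulated data. Same-numbered samples tended to deviate from their group means together (correlation across genes 0.168 to 0.409 over 3 pairs, against -0.353 to 0.205 over 9 pairs of different number). The number was therefore taken as a pairing, although the ranges overlap and the labels do not say what it stands for. Control 4 has no partner, so the fit with this block estimates the difference from 3 pairs. The exact permutation test was two-sided over 35 regroupings. Its p was taken as double the smaller tail, a definition chosen after a less strict one had been tried on these values.

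Depth was estimated from the most frequent low normalized count, taken as 1 read. Of the values of 0.5 to 10 reads, 75.0% to 80.6% were whole within 0.05, too few for a count test, so none was run. With 4 and 3 samples, precision is limited by the spread between mice.

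Named genes were Fasn, the 10 genes, every gene of the microtubule lists past the threshold, 12 well-known partners, and the 5 nearest profiles of Tubb4a, Tppp and Tubb3. Dcx, Clip4, Cct5 and the neuronal markers were named after their values had been seen, as were the sequences shown and the promoter letters searched. Of the 109 list genes, 105 were read in the table and 8 of these were below the filter. Svbp, Map7d3 and Mtap9 (an older symbol of Map9, which the list also holds) were not matched by name, and Dst was left out because 3 rows carry its name. Some sequences are not reported here.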

Additional observations from a re-analysis of the deposited data

Results flagged for a closer look

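In 2 of the 24 control groups examined, 1 for each of the 10 genes and 14 named microtubule genes, a single control stood apart from the other 3 by a Dixon test, which chance does in about 1 group of 20. For Sirt2, control 1 had 2460 FPKM, below the next value of 2658 FPKM and still above every mutant. For Stmn1, control 2 had 332.5 FPKM, above the next value of 289.4 FPKM. None of the 10 tubulin and Tppp control groups was singled out, and the mutant groups of 3 samples could not be examined in this way.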

How the results depend on the processing

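Of the 10 genes, none passed under 7 other choices of pseudocount, filter, scaling or moderation. With the replicate block, which also leaves control 4 out of the difference, 3 passed, without mutant 2 again 3 (Tubb4a and Tppp lower, Tuba4a higher), and relative to the mature OL markers 1. Leaving out a library gave 0 to 3. Over all genes 363 passed, 95 without a filter, 1159 with the replicate block, and 6 to 907 without 1 library, with 6 calls without control 3 or mutant 3 and 907 without mutant 2. The calls were 48.2% higher with FPKM, 27.7% with normalized counts, 37.9% with median-of-ratios scaling, 76.8% with the block and 95.02% relative to the mature OL markers. Of the microtubule list genes 5 passed with the block, 1 relative to the mature OL markers and 0 to 7 without 1 library. Among the 10 genes and the 14 microtubule genes named by rule, the replicate block changed no call but those of Tubb2b, Tubb3 and Tuba4a. The cause of these shifts was not tested.

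Signs turned in genes with small differences only. With the replicate block Tubb2a had 0.0299. With normalized counts Tuba1b had -0.0393, Tubb4b -0.0583, Tubg1 -0.0270 and Hdac6 -0.0483, and with median-of-ratios scaling Tuba1b had -0.00728, Tubb4b -0.0263 and Hdac6 -0.0159. Relative to the mature OL markers the values were 0.161 for Tubb2a, 0.118 for Tubb5, 0.0486 for Tppp3, 0.0923 for Tubg2, 0.171 for Mapt, 0.0973 for Stmn1 and 0.175 for Stmn4. Without 1 library they ranged from -0.182 to 0.0634 for Tubb2a, -0.146 to 0.0215 for Tubb5, -0.0323 to 0.215 for Tubb6, -0.0448 to 0.160 for Tuba1b, -0.0198 to 0.0689 for Tubb4b, -0.0289 to 0.0959 for Tubg1, -0.215 to 0.0582 for Tubg2, -0.0255 to 0.0968 for Hdac6, -0.117 to 0.113 for Mapt and -0.122 to 0.0816 for Stmn4. The other 6 of the 10 genes kept their sign under all 16 alternatives.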
